A study of Mus musculus with 24 samples.

Results

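The genes described here mark the precursor and committed stages of the oligodendrocyte lineage, and they were followed across cultures and isolates that are labelled as astrocytes or as neural stem cells. They are 10 of the 49671 genes in the count table of the series: Pdgfra, Cspg4, Ptprz1, Olig1, Olig2, Sox10, Nkx2-2, Gpr17, Bcas1 and Enpp6. They were chosen by name, and each was found through its Ensembl identifier in the Gencode mouse annotation. RNA-seq had been made of 24 libraries in 6 groups of 4. NSCs were neural stem cells of the mouse embryonic stem cell line GSC-5003, which is of C57BL/6 N origin, grown with FGF and EGF between passages 50 and 60. AGES (astrocytes generated from embryonic stem cells) were the same NSCs after 3 to 5 days with 20 ng/ml BMP4, so that both groups come from 1 cell line. For AGES the methods list BMP4 without FGF and EGF, on poly-ornithine and laminin, whereas NSCs were grown on gelatin. Between these 2 groups BMP4, the absence of the growth factors and the change of coating cannot be told apart. The other 4 groups came from brains of C57BL/6 J wild-type mice, females and males together, from which cells were captured by magnetic beads against the astrocyte surface antigen ACSA-2. The age was 4 to 8 days for the neonatal and 100 to 140 days for the adult isolations. Cells were frozen at once (neoAC direct, AdAC direct) or kept for 7 to 10 days in AstroMACS medium (neoAC CellC, AdAC CellC). Adult tissue was dissociated with a kit for adult brain and freed of debris and red blood cells, and neonatal tissue was dissociated with another kit after the meninges had been taken off, so age and the way of dissociation cannot be told apart. Brains of 2 mice were pooled for each neonatal and each adult isolation. The methods state the removal of olfactory bulb and cerebellum for AdAC direct alone, so a difference in brain region between AdAC direct and AdAC CellC cannot be told apart from culture. Neonatal tissue is described as cerebral, so a difference in region cannot be told apart from age in the cultures either. Replicates were separate isolations, or separate cultures from different passages.

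Oligodendrocytes arise from precursors (OPCs) that divide in response to platelet-derived growth factor. OPCs carry PDGF receptor alpha and the proteoglycan NG2, become committed when they express GPR17, BCAS1 and ENPP6, and then start to make myelin. Transcription factors of the OLIG, SOX and NKX families act through the whole course, and of these OLIG1, OLIG2 and NKX2-2 are also found in neural progenitors.

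The libraries held between 27904126 and 37997368 counts on genes. Values below are CPM after TMM scaling, that is counts relative to the library total, given as mean ± SD with n = 4 unless each library is named, and tests are those of edgeR's quasi-likelihood model, adjusted over 19691 genes. Whether the libraries of 2 groups overlap is given as a description only, because the share of all genes without overlap is not given here. All 10 genes passed the filter on low counts. Nkx2-2 and Gpr17 passed through the primary cells alone, because no NSC or AGES library had more than 2 counts of either. Sox10 also passed through them alone, as too few of its NSC (4 to 22 counts) and AGES (5 to 17) libraries reached the filter's minimum. A group with 3 counts or fewer of a gene in every library is called at the floor, which was 0.0961 CPM in NSCs and 0.0997 CPM in AGES, so that any fold set against it is a lower bound and covers counting error only. Exons of Pdgfra (over 622 bases), Olig1 (157), Nkx2-2 (278), Gpr17 (188) and Bcas1 (474) overlap exons on the opposite strand, and the sources used here do not say whether strand was used in counting, so their counts can hold reads of the opposite gene.

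The labels were compared with 8 astrocyte markers, among them Gfap and Slc1a2. Their summed level was 51697 to 56780 CPM in AGES, 19072 to 22464 in neoAC direct, 13696 to 14321 in AdAC direct and 7018 to 8226 in neoAC CellC. The sums do not hold for each gene. Of the 8 markers, 2 were higher in AGES than in neoAC CellC (Gfap 18.1-fold) and 4 lower (Gja1 59.8-fold). In AdAC CellC 7 of the 8 were lower than in AdAC direct, and Gfap was not called (log2 0.18). AdAC CellC had only 867 to 1321 CPM, less than the 1642 to 2020 CPM of the NSCs, so the markers of the labelled cell type were low in that group, while 6 fibroblast markers summed to 1065 to 1547 CPM there and to 83.0 to 99.5 CPM in AdAC direct. Myelin and mature oligodendrocyte markers, 12 genes, summed to 29811 to 33778 CPM in AdAC direct and 4726 to 11990 CPM in AdAC CellC, against 344 to 416 in neoAC direct, 281 to 368 in neoAC CellC, 26.2 to 47.8 in AGES and 20.5 to 31.1 in NSCs. Some libraries stood apart. AdAC CellC replicate 1 had the lowest value of its group for 8 of the 10 genes and also the lowest myelin sum (4726 CPM, against 9047 to 11990 in the other 3). The library neoAC direct replicate 2 had the highest value of its group for 5 of the 10 genes, together with the highest sums of 5 endothelial markers (314 CPM against 77.2 to 122), 6 microglial markers (54.8 against 10.8 to 19.4) and 6 pericyte markers (1091 against 670 to 810). Culture neoAC CellC replicate 2 was lowest for 8 of the 10 genes. AdAC direct replicate 2 was highest of its group for 7 of the 10 genes, and neoAC CellC replicate 4 for 5. AdAC direct replicate 4 and neoAC direct replicate 3 were each lowest for 5.

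**Figure D1:**
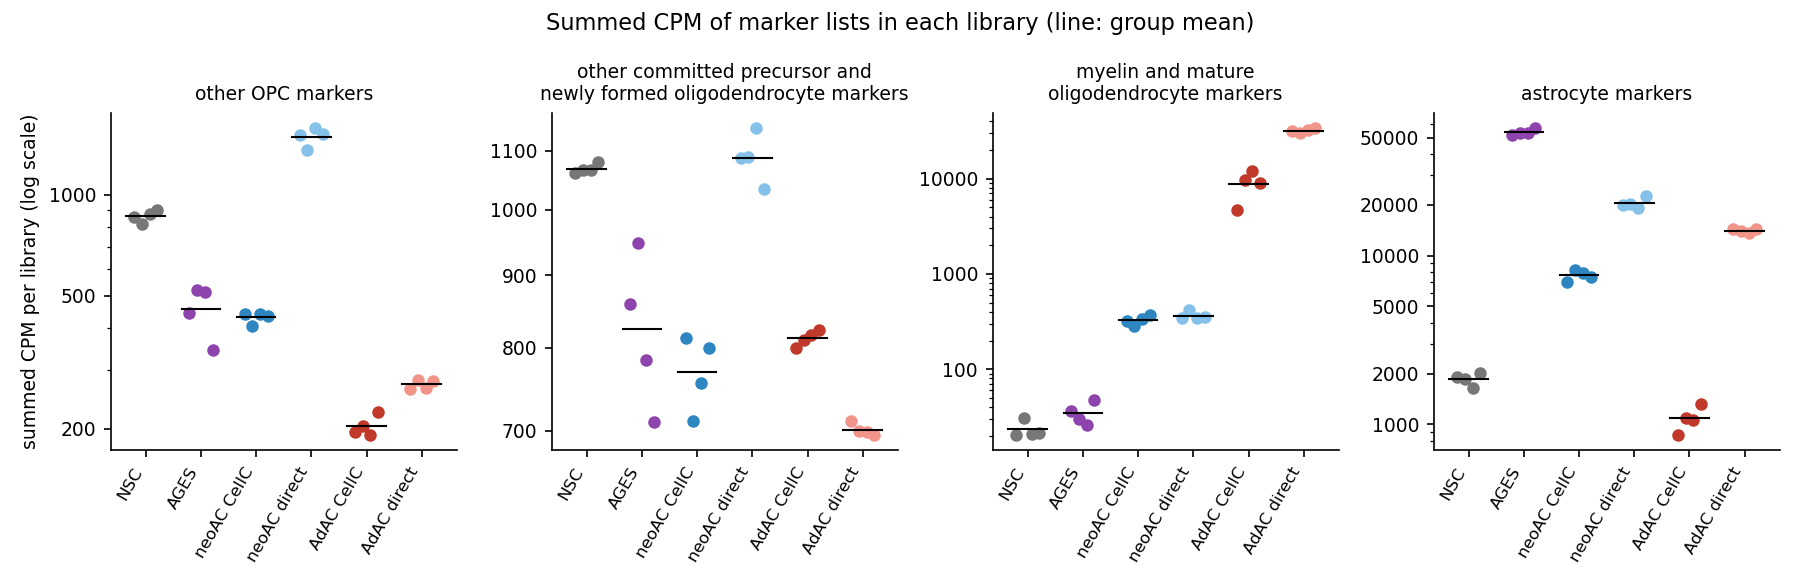
Summed CPM of 4 marker lists (log axes), 1 point per library and a line at each group mean. Myelin markers reached 29811 to 33778 CPM in AdAC direct and 4726 to 11990 CPM in AdAC CellC, while no library of another group exceeded 416 CPM, and the astrocyte markers were lowest in AdAC CellC.

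The stretch before the transcription start is shown for 3 of the genes that describe the range of patterns in the data: Nkx2-2, which was at the floor in both cell line groups, Olig2, which was expressed in every library, and Enpp6, which had the largest log2 difference between ages among directly isolated cells. Sequences are 250 bases before the RefSeq start on GRCm38.p6, 5′ to 3′ on the strand of the gene. Capitals mark the E-box CANNTG, the kind of motif that OLIG proteins and other basic helix-loop-helix factors bind, and the SOX-type motifs ACAAAG and AACAAT, each searched on both strands, with no overlap between matches. The first lies at chr2:147186403-147186652 (minus strand), inside the Gencode span of Nkx2-2, the second at chr16:91225300-91225549 (plus strand) and the third at chr8:46986637-46986886 (plus strand). The second runs past the Gencode start of Olig2 at 91225457, so its end, with the marked motif, lies inside the Gencode span of Olig2.
Nkx2-2: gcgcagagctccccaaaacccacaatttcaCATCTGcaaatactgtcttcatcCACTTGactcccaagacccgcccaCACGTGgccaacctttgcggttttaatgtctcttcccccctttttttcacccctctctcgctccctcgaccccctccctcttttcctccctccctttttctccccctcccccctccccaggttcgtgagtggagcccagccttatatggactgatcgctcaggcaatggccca
Olig2: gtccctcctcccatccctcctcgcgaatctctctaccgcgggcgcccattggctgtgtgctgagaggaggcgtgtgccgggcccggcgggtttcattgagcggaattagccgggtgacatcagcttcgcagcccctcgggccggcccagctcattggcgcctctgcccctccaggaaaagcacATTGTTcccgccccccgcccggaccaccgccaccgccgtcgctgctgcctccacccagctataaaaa
Enpp6: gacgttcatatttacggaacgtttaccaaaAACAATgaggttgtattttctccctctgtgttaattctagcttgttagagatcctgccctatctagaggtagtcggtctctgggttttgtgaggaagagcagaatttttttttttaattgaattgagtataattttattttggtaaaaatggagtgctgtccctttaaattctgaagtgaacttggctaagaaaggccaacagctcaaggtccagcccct
The Nkx2-2 stretch held 3 E-boxes and no SOX-type motif, whereas those of Olig2 and Enpp6 each held 1 AACAAT, read on the opposite strand in Olig2, and no E-box. Of 32851 RefSeq promoters of this length, 66.2% held CANNTG, 16.5% ACAAAG and 9.42% AACAAT, so such matches are common. A table entry was found for 6 of the 10 genes. These matches are a description of the letters and were not tied to binding.

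Compared per kilobase of exon, which allows genes to be set beside each other, Ptprz1 in neoAC direct had the highest level of all, 757 CPM per kb, and Olig1 in NSCs followed with 617 CPM per kb. In NSCs, Olig1 and Olig2 (247 CPM per kb) were followed by Ptprz1 (75.6) and Bcas1 (44.7), while Pdgfra was at 1.14, Enpp6 at 0.229, Sox10 at 0.100 and Cspg4 at 0.0615 CPM per kb. The 2 cell line groups thus expressed Olig1, Olig2, Ptprz1 and Bcas1 but had Sox10 and Cspg4 at only 4 to 31 counts per library in NSCs and 2 to 17 in AGES. In AdAC direct the order was Olig1 (257), Sox10 (131), Olig2 (72.2), Ptprz1 (64.4) and Bcas1 (51.6), with Pdgfra last at 0.240 CPM per kb. In neoAC direct it was Ptprz1, Olig1 (343), Olig2 (81.5), Nkx2-2 (9.47) and Cspg4 (4.24), with Enpp6 last at 0.0468 CPM per kb. These orders are descriptions, without a test between genes.

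**Figure D2:**
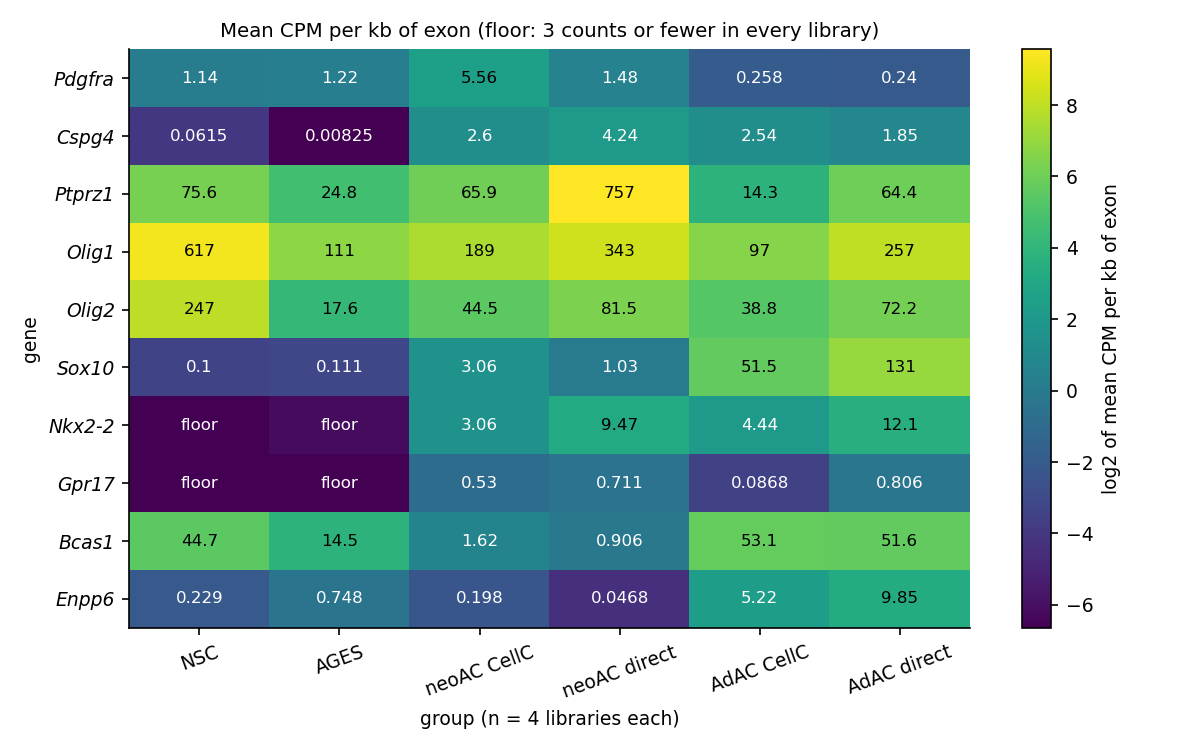
Mean CPM per kb of merged exon for the 10 genes (rows) in the 6 groups (columns, 4 libraries each), coloured by its log2. Ptprz1 in neoAC direct (757) and Olig1 in NSCs (617) are the highest cells, and Nkx2-2 and Gpr17 are at the floor in NSCs and AGES.

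The first comparison asked how neonatal and adult astrocytes differ when they are taken directly from the brain. The precursor genes Pdgfra, Cspg4 and Ptprz1 were higher in neoAC direct, and Sox10, Bcas1 and Enpp6 were higher in AdAC direct by between 56.5-fold and 208-fold. Olig1, Olig2 and Gpr17 did not pass the test. In all, 7 of the 10 genes passed, 3 higher in neonatal and 4 higher in adult cells, where 71.4% of all genes passed. The median absolute log2 fold change was 1.91 for the 10 genes and 0.78 for all genes. In these bulk libraries fewer cells of a type and less RNA per cell cannot be told apart.

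Pdgfra (ENSMUSG00000029231, chr5:75152292-75198215 of GRCm38) encodes the receptor through which PDGF-AA keeps precursors dividing. It had 15.4, 20.9, 7.95 and 14.9 CPM in the neoAC direct libraries and 2.59, 2.01, 2.67 and 2.37 CPM in AdAC direct. The groups did not overlap, and the level was 6.15-fold higher in neonatal cells (log2 2.62, standard error 0.24, edgeR adjusted p = 7.52e-10). Across the 6 groups neoAC CellC had the highest level (55.8 ± 12.3 CPM), followed by neoAC direct (14.8 ± 5.30), AGES (12.2 ± 1.89) and NSCs (11.4 ± 2.46), and AdAC CellC (2.59 ± 0.579) and AdAC direct (2.41 ± 0.297) came last. Neighbours in this order differed at the first step (log2 1.91) and between NSCs and AdAC CellC (log2 2.14), and the other 3 steps did not pass the test. All 8 adult libraries thus lay below the other 16.

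Cspg4 (ENSMUSG00000032911, chr9:56865033-56899870) encodes NG2, a proteoglycan of OPCs and of pericytes. Its 4 values were 52.2, 67.5, 49.2 and 33.5 CPM in neoAC direct and 22.3, 24.1, 23.5 and 18.4 CPM in AdAC direct, again without overlap and 2.30-fold higher in neonatal cells (log2 1.20, standard error 0.16, edgeR adjusted p = 3.60e-07). The sum of the 6 pericyte markers was likewise higher in neoAC direct (670 to 1091 CPM) than in AdAC direct (314 to 338 CPM), with 2 of the 6 higher and 1 lower by the test and most of the sum in Notch3 (560 ± 125 CPM), and in NSCs and AGES 2 of them were at the floor. Their part in the difference of Cspg4 was not tested. Levels of Cspg4 fell in the order neoAC direct, neoAC CellC, AdAC CellC, AdAC direct, NSC and AGES, and the step from neoAC CellC (31.1 ± 4.97) to AdAC CellC (30.3 ± 3.85) was the only 1 that did not pass the test.

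Ptprz1 (ENSMUSG00000068748, chr6:22875502-23052916) encodes a receptor phosphatase for pleiotrophin and midkine that is found on precursors and radial glia and also on astrocytes. In neoAC direct it reached 10736, 9688, 10103 and 12621 CPM. The AdAC direct libraries had 882, 915, 871 and 1003 CPM. The lowest neonatal library was therefore far above the highest adult one, and the difference was 11.8-fold (log2 3.56, standard error 0.15, edgeR adjusted p = 1.48e-16). NSCs (1077 ± 46.3), neoAC CellC (939 ± 68.6) and AdAC direct (918 ± 59.7) followed in this order without passing the test between neighbours, and AGES (353 ± 93.6) and AdAC CellC (204 ± 25.9) were lowest.

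Among the transcription factors, Sox10 (ENSMUSG00000033006, chr15:79154908-79165240), which is required for terminal differentiation of oligodendrocytes and is used as a marker of the entire lineage, differed widely between ages. It had 2.05, 6.81, 1.6 and 2.13 CPM in neoAC direct and 377, 464, 410 and 348 CPM in AdAC direct. The adult level was 124-fold higher (log2 −6.96 for neonatal against adult, standard error 0.37, edgeR adjusted p = 1.55e-13), and without neoAC direct replicate 2 the log2 difference was −7.70. Ordered by level, AdAC direct (400 ± 49.9) was followed by AdAC CellC (157 ± 41.5), neoAC CellC (9.34 ± 2.09) and neoAC direct (3.15 ± 2.45), with each step passing the test, and then by AGES (0.339) and NSCs (0.305), between which the interval of the log2 difference ran from −1.43 to 1.71.

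The pair Olig1 (ENSMUSG00000046160, chr16:91269772-91271933) and Olig2 (ENSMUSG00000039830, chr16:91225457-91228677) lies side by side on chromosome 16 and encodes basic helix-loop-helix factors, of which OLIG2 specifies the lineage and OLIG1 acts later in maturation. Olig1 had 736, 831, 833 and 566 CPM in neoAC direct and 505, 606, 583 and 529 CPM in AdAC direct. Olig2 had 235, 199, 221 and 169 CPM in the first and 164, 197, 190 and 179 CPM in the second. Both pairs of groups overlapped, and neither gene passed the test, with intervals of the log2 difference from −0.03 to 0.86 for Olig1 and from −0.26 to 0.61 for Olig2. In a fit of the 2 groups alone Olig1 passed (log2 0.44, edgeR adjusted p = 0.00681). Over the 6 groups Olig1 was highest in NSCs (1334 ± 95.4), followed by neoAC direct (741 ± 125), AdAC direct (556 ± 46.6), neoAC CellC (409 ± 190), AGES (239 ± 47.0) and AdAC CellC (210 ± 54.4), and its steps from NSCs to neoAC direct (1.80-fold) and from neoAC CellC to AGES (1.71-fold) passed the test. Olig2 was also highest in NSCs (624 ± 64.0), 3.03-fold above neoAC direct (206 ± 28.8), and was lowest in AGES (44.6 ± 5.13), with AdAC direct (183 ± 14.2), neoAC CellC (113 ± 56.9) and AdAC CellC (98.1 ± 20.5) between them. Both genes were thus highest in the neural stem cells.

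Nkx2-2 (ENSMUSG00000027434, chr2:147177546-147194243) encodes a homeodomain factor that times the onset of differentiation. Its libraries had 27.6, 29.9, 30.4 and 21 CPM in neoAC direct and 31.6, 39.9, 35.5 and 31.6 CPM in AdAC direct. The groups did not overlap, but the difference was only 1.27-fold (log2 −0.35, standard error 0.16, edgeR adjusted p = 0.0497), and it missed the threshold with DESeq2's size factors (edgeR adjusted p = 0.0558) and with the DESeq2 Wald test (DESeq2 adjusted p = 0.0963). It also missed the threshold without a filter on low counts (edgeR adjusted p = 0.1) and without neoAC direct replicate 1 or 4 or AdAC direct replicate 2, 3 or 4 (edgeR adjusted p from 0.0598 to 0.176). AdAC direct, neoAC direct, AdAC CellC (12.8 ± 1.16) and neoAC CellC (8.80 ± 2.71) formed a falling order, with each step passing the test.

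Gpr17 (ENSMUSG00000052229, chr18:31942997-31949636) encodes a G protein-coupled receptor that is present for a short time in committed precursors. In neoAC direct it had 2.83, 6.75, 2.38 and 2.83 CPM, or 70 to 244 counts. In AdAC direct it had 3.94, 4.66, 4.43 and 3.72 CPM, or 111 to 151 counts. The groups overlapped through neoAC direct replicate 2, and the test was not passed (interval of the log2 difference −0.87 to 0.52). Ordered by level, AdAC direct (4.19 ± 0.433), neoAC direct (3.70 ± 2.05) and neoAC CellC (2.75 ± 1.25) did not pass the test between neighbours, AdAC CellC (0.451 ± 0.258) was lower than these, and NSCs and AGES were at the floor.

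Bcas1 (ENSMUSG00000013523, chr2:170346991-170427845) marks oligodendrocytes that are starting to myelinate and is also known from myelin. It had 3.77, 4.51, 2.24 and 3.16 CPM in neoAC direct against 197, 204, 199 and 180 CPM in AdAC direct. The adult level was 56.5-fold higher (log2 −5.82, standard error 0.27, edgeR adjusted p = 7.09e-15). Bcas1 was nearly as high in NSCs (169 ± 28.3) as in AdAC direct (195 ± 10.3) and AdAC CellC (201 ± 54.6), and the neighbours among these 3 groups did not pass the test. AGES (54.6 ± 5.04), neoAC CellC (6.11 ± 2.25) and neoAC direct (3.42 ± 0.961) came after them, each lower than the one before.

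Enpp6 (ENSMUSG00000038173, chr8:46986887-47096762) encodes a choline phosphodiesterase of newly formed oligodendrocytes. Its counts were only 7 to 12 per library in neoAC direct, that is 0.260, 0.304, 0.238 and 0.399 CPM. AdAC direct had 54.4, 59.5, 64.3 and 74.5 CPM. This was the largest difference between ages among the 10 genes with all libraries in the fit, 208-fold (log2 −7.70, standard error 0.30, edgeR adjusted p = 3.74e-17). The order of the groups was AdAC direct, AdAC CellC (33.5 ± 7.98), AGES (4.80 ± 0.960), NSCs (1.47 ± 0.538), neoAC CellC (1.27 ± 0.474) and neoAC direct, and the step from NSCs to neoAC CellC was the only 1 that did not pass the test.

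**Figure D3:**
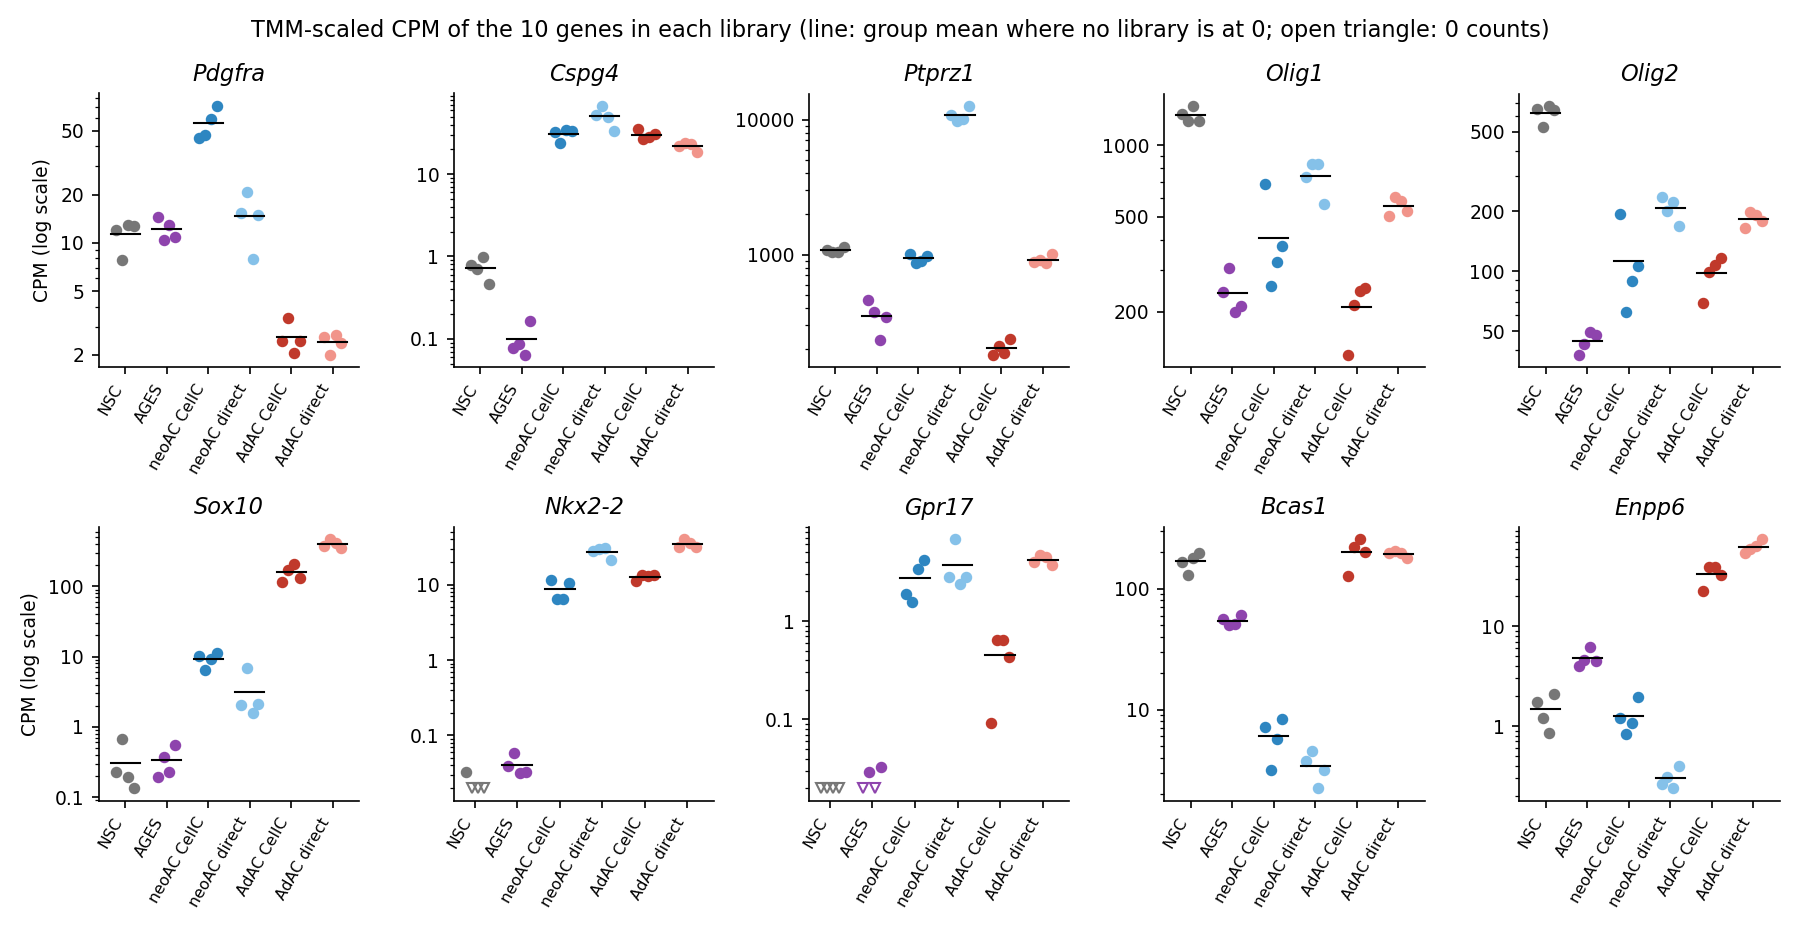
CPM of each gene in every library (log axes), grouped along the x axis, with a line at the group mean and open triangles for libraries with 0 counts. Sox10 and Enpp6 are highest in AdAC direct, Ptprz1 in neoAC direct, Pdgfra in neoAC CellC and Olig1 and Olig2 in NSCs.

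The 3 genes with the largest differences between directly isolated adult and neonatal cells moved in the direction of the myelin list. All 12 myelin and mature oligodendrocyte markers were higher in AdAC direct, among them Mbp (10.5 ± 1.88 CPM in neoAC direct) and Mag (2.17 ± 0.211), and none of them was at the floor in any group. What part mature oligodendrocytes had in the levels of Sox10, Bcas1 and Enpp6 was not tested.

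Next, cultured cells were compared with cells frozen directly, first for the neonatal mice. Culture was accompanied by higher Pdgfra, Sox10, Bcas1 and Enpp6 and by lower Ptprz1, Nkx2-2, Olig1, Olig2 and Cspg4. Of the 10 genes 9 passed the test, 4 higher and 5 lower in culture, against 65.7% of all genes. The median log2 fold change was −0.57 for the 10 genes and 0.04 for all genes.

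Pdgfra was 3.76-fold higher in neoAC CellC, whose libraries had 45.1, 47.0, 59.5 and 71.5 CPM (log2 1.91, standard error 0.22, edgeR adjusted p = 3.05e-08). Each cultured library was above the highest directly isolated one, 20.9 CPM. Fibroblasts can also carry this receptor, and 6 fibroblast markers summed to 390 to 653 CPM in neoAC CellC and 197 to 326 CPM in neoAC direct. The sums were highest in AdAC CellC, where Pdgfra was low. Gene by gene, 3 of the 6 markers were higher in neoAC CellC than in AdAC CellC and 2 were lower. The part of fibroblasts in the rise was not tested. Sox10 had 10.3, 6.52, 9.17 and 11.4 CPM in neoAC CellC, 2.89-fold more than in neoAC direct (log2 1.53, standard error 0.33, edgeR adjusted p = 0.00033), and the groups overlapped only through neoAC direct replicate 2, without which the log2 change was 2.27. Enpp6 rose 4.17-fold, to 1.22, 0.838, 1.08 and 1.94 CPM, without overlap (log2 2.06, standard error 0.36, edgeR adjusted p = 1.93e-05). For Bcas1 the cultured libraries had 7.24, 3.17, 5.68 and 8.37 CPM and overlapped the directly isolated ones, with a 1.77-fold rise (log2 0.82, standard error 0.26, edgeR adjusted p = 0.00739). These 4 genes thus rose in neonatal culture, but Sox10, Bcas1 and Enpp6 stayed at or under 11.4 CPM in every neonatal library. Of the 12 myelin markers 7 were higher and 2 lower in neonatal culture (median log2 0.86), with Mbp 3.62-fold and Mag 2.71-fold higher, while the most abundant of them, Cnp, was 1.54-fold lower. All 6 neuroblast markers were higher too, with sums of 291 to 335 CPM in neoAC CellC and 55.0 to 74.2 CPM in neoAC direct. The part of either in the rise of the 4 genes was not tested.

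Ptprz1 showed the largest fall, from 10787 ± 1297 to 939 ± 68.6 CPM, with 1013, 864, 901 and 978 CPM in the cultured libraries (log2 −3.52, standard error 0.15, edgeR adjusted p = 3.76e-16). Nkx2-2 fell 3.10-fold, to 11.7, 6.52, 6.46 and 10.6 CPM (log2 −1.63, standard error 0.16, edgeR adjusted p = 2.89e-09). Olig1 had 684, 255, 322 and 375 CPM and Olig2 194, 62.3, 88.8 and 106 CPM in neoAC CellC. Replicate 1 was the highest culture for both and reached into the range of the directly isolated cells. Both fell, Olig1 by 0.86 (edgeR adjusted p = 0.00204) and Olig2 by 0.87 (edgeR adjusted p = 0.00151) on the log2 scale. Cspg4 fell by 0.71 (edgeR adjusted p = 0.000401), with 32.6, 23.7, 34.7 and 33.2 CPM in culture, of which only 1 library, replicate 3, lay within the range of the directly isolated cells. Of the 6 pericyte markers 5 were lower in neonatal culture (median log2 −5.14, sums of 52.4 to 65.2 CPM against 670 to 1091 CPM) and none was higher, 1 of them was at the floor there, and 4 of 5 endothelial markers were lower (40.9 to 68.8 CPM against 77.2 to 314 CPM). Their part in the fall of Cspg4 was not tested. Gpr17 had 1.87, 1.55, 3.41 and 4.18 CPM and did not pass the test (log2 −0.43, interval −1.14 to 0.27). Without neoAC direct replicate 2 its log2 change was 0.04.

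In adult cells culture was accompanied by lower values of 7 of the 10 genes and a higher value of 1, where 78% of all genes passed the test. Sox10, Olig1, Olig2, Nkx2-2, Gpr17, Enpp6 and Ptprz1 were lower in AdAC CellC, Cspg4 was higher, and Pdgfra and Bcas1 did not pass. The median log2 fold change of the 10 genes was −1.13, that of all genes 0.

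Gpr17 had the largest change, from 4.19 ± 0.433 CPM to 0.0921, 0.641, 0.637 and 0.434 CPM, which were 3, 22, 24 and 14 counts (log2 −3.19, standard error 0.43, edgeR adjusted p = 5.19e-07). Ptprz1 fell 4.5-fold, to 181, 209, 187 and 238 CPM (log2 −2.17, standard error 0.14, edgeR adjusted p = 4.52e-13). Nkx2-2 had 11, 13.5, 13.2 and 13.4 CPM in culture and fell 2.71-fold (log2 −1.44, standard error 0.16, edgeR adjusted p = 1.06e-08). In each of these genes all cultured libraries lay below all directly isolated ones. Olig1 reached 132, 213, 243 and 251 CPM in culture and fell by 1.41 in log2 units (standard error 0.23, edgeR adjusted p = 7.46e-06). Olig2 reached 69.3, 99.2, 108 and 116 CPM and fell by 0.90 (standard error 0.22, edgeR adjusted p = 0.000899). Neither overlapped the directly isolated libraries.

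Sox10 had 117, 168, 211 and 133 CPM in AdAC CellC and was 2.54-fold lower than in AdAC direct (log2 −1.35, standard error 0.28, edgeR adjusted p = 0.000138). Enpp6, with 22.6, 39.4, 39.5 and 32.4 CPM, was 1.89-fold lower (log2 −0.92, standard error 0.19, edgeR adjusted p = 0.000111). Bcas1 had 126, 220, 256 and 200 CPM in culture, a range that enclosed the 4 directly isolated libraries (180 to 204 CPM), and its log2 change of 0.04 had an interval from −0.36 to 0.45. All 3 were lowest in replicate 1, the culture with the lowest myelin sum, and 11 of the 12 myelin markers were lower in AdAC CellC while Mbp was not called (log2 −0.44). Their part in these values was not tested. Pdgfra did not pass either (interval of the log2 change −0.40 to 0.61). Cspg4 was 1.37-fold higher in culture (log2 0.46, standard error 0.16, edgeR adjusted p = 0.0128), a call that was lost without a filter on low counts (edgeR adjusted p = 0.0618) and with the DESeq2 Wald test (DESeq2 adjusted p = 0.0672).

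Whether the change with culture differed between ages was tested as an interaction, the adult minus the neonatal log2 change. It passed for 7 of the 10 genes, 2 higher and 5 lower, against 68.6% of all genes. Pdgfra (−1.81, edgeR adjusted p = 4.24e-05), Sox10 (−2.88, edgeR adjusted p = 4.06e-06), Enpp6 (−2.98, edgeR adjusted p = 5.08e-07), Gpr17 (−2.76, edgeR adjusted p = 0.000153) and Bcas1 (−0.78, edgeR adjusted p = 0.0401) changed less upward or more downward in adult cells. Cspg4 (1.16, edgeR adjusted p = 7.34e-05) and Ptprz1 (1.35, edgeR adjusted p = 1.06e-06) changed in the other direction, Cspg4 with a rise in adult and a fall in neonatal culture and Ptprz1 with a fall in both. Sox10 and Enpp6 rose in neonatal and fell in adult culture, each passing its own test. For Olig1, Olig2 and Nkx2-2, which fell at both ages, the interaction did not pass, with intervals from −1.17 to 0.08, from −0.64 to 0.59 and from −0.25 to 0.63. Without neoAC direct replicate 2 the value for Sox10 was −3.62. The call for Bcas1 was lost in a fit of these 4 groups alone (edgeR adjusted p = 0.0556), without a filter on low counts (edgeR adjusted p = 0.0797) and, with edgeR adjusted p from 0.054 to 0.125, without any 1 of neoAC CellC replicates 1 and 4, neoAC direct replicates 3 and 4, AdAC CellC replicates 1 and 4 and AdAC direct replicates 1, 2 and 3. Olig1 passed without neoAC CellC replicate 2 (log2 −0.71, edgeR adjusted p = 0.041).

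**Figure D4:**
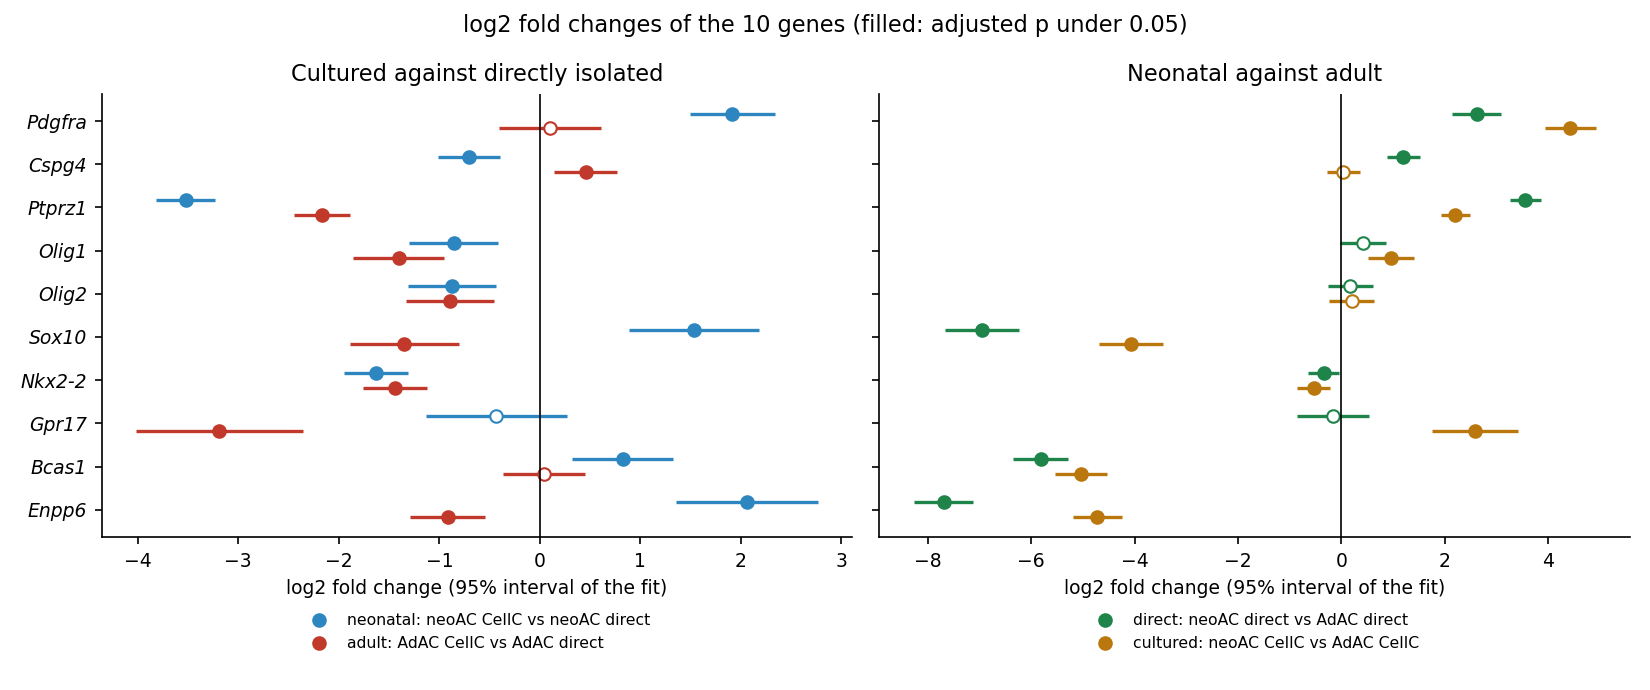
Log2 fold changes of the 10 genes with 95% intervals of the fit, on the left for culture against direct isolation in neonatal (blue) and adult (red) cells, and on the right for neonatal against adult cells isolated directly (green) or cultured (orange). Filled points passed an adjusted p of 0.05. Sox10 and Enpp6 lie on opposite sides of 0 in the left panel, and Sox10, Bcas1 and Enpp6 lie below −4 in the right panel for both kinds of preparation.

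When both ages had been cultured, neonatal cells had higher Pdgfra, Ptprz1, Gpr17 and Olig1, and adult cells had higher Sox10, Bcas1, Enpp6 and Nkx2-2. That made 8 of the 10 genes called, 4 in each direction, where 63.8% of all genes were. The median absolute log2 fold change of the 10 genes was 2.39, against 0.59 for all genes. Pdgfra was 21.5-fold higher in neoAC CellC, and its adult cultures had 2.45, 3.41, 2.04 and 2.45 CPM (log2 4.43, standard error 0.25, edgeR adjusted p = 1.83e-13). Bcas1 was 32.9-fold (log2 −5.04, standard error 0.25, edgeR adjusted p = 9.66e-14), Enpp6 26.4-fold (log2 −4.72, standard error 0.24, edgeR adjusted p = 2.37e-14) and Sox10 16.8-fold (log2 −4.07, standard error 0.32, edgeR adjusted p = 2.27e-10) higher in AdAC CellC. All 12 myelin markers were higher in AdAC CellC as well (median log2 −6.31), and their part in these 3 differences was not tested. Receptor Ptprz1 was 4.61-fold higher in neoAC CellC (log2 2.20, standard error 0.14, edgeR adjusted p = 1.34e-12), and Gpr17 was 5.99-fold higher there (log2 2.58, standard error 0.43, edgeR adjusted p = 1.62e-05). Olig1 was 1.95-fold higher (log2 0.96, edgeR adjusted p = 0.000777), and the adult cultures were 1.45-fold higher in Nkx2-2 (log2 −0.54, edgeR adjusted p = 0.00543), with overlap between the libraries. In a fit of these 2 groups alone Nkx2-2 missed the threshold (edgeR adjusted p = 0.0548). Cspg4 (interval of the log2 difference −0.28 to 0.35) and Olig2 (−0.23 to 0.63) did not pass. Without neoAC CellC replicate 1, the culture with the highest Olig2, the log2 difference of Olig2 was −0.19.

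The differentiation of NSCs to AGES was accompanied by lower Olig2, Cspg4, Olig1, Bcas1 and Ptprz1 and by higher Enpp6. Nkx2-2 and Gpr17, at the floor in both groups, and Sox10 are left out of the count. The filter kept them through primary cells alone. All of the other genes but Pdgfra were called, 5 lower and 1 higher, where 65.7% of all genes were called. The NSC libraries had 650, 530, 674 and 642 CPM of Olig2, and the AGES libraries 38.1, 43.2, 49.6 and 47.7 CPM. This was a 14-fold fall without overlap (log2 −3.81, standard error 0.25, edgeR adjusted p = 2.66e-12). For Olig1 the values were 1356, 1260, 1460 and 1260 CPM in NSCs and 241, 305, 200 and 211 CPM in AGES, a 5.58-fold fall (log2 −2.48, standard error 0.24, edgeR adjusted p = 2.27e-09). Cspg4 was low in both, with 0.782, 0.698, 0.987 and 0.468 CPM in NSCs and 0.0780, 0.0870, 0.0641 and 0.165 CPM in AGES, the latter from 2 to 5 counts (log2 −2.85, standard error 0.45, edgeR adjusted p = 3.77e-06).

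Bcas1 had 167, 131, 179 and 199 CPM in NSCs and 56.6, 49.8, 51.3 and 60.8 CPM in AGES (log2 −1.63, standard error 0.21, edgeR adjusted p = 4.34e-07). Ptprz1 had 1082, 1047, 1037 and 1140 CPM in NSCs and 459, 376, 233 and 343 CPM in AGES (log2 −1.61, standard error 0.14, edgeR adjusted p = 1.31e-10). Enpp6 went the other way, from 1.73, 1.21, 0.859 and 2.07 to 3.98, 4.58, 6.18 and 4.44 CPM (log2 1.71, standard error 0.24, edgeR adjusted p = 8.48e-07). None of these 3 genes overlapped between the groups. Pdgfra did not pass the test, with 12.1, 7.77, 13.0 and 12.8 CPM in NSCs and 14.5, 10.5, 13.0 and 10.9 CPM in AGES (interval of the log2 change −0.33 to 0.52). Sox10 was at 4 to 22 counts in NSCs and 5 to 17 in AGES and did not pass, and its log2 change of 0.14 became 0.89 without NSC replicate 2. Nkx2-2 and Gpr17 were at the floor in both groups, so no fold is given. The median log2 change of the other 8 genes, with Sox10 among them, was −1.62, and that of all genes 0.

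AGES were then set against cultured primary astrocytes. Nkx2-2 and Gpr17, at the floor in AGES, and Sox10 are left out of the counts. The filter kept them only through their levels in primary cells. Against neoAC CellC all of the other genes were called, 2 higher and the rest lower in AGES, where 74.6% of all genes were called. Bcas1 (8.96-fold) and Enpp6 (3.79-fold) were higher in AGES. Cspg4, at 2 to 5 counts in AGES, was lower there (log2 −8.24, standard error 0.30, edgeR adjusted p = 1.58e-18), Sox10 was 26.8-fold lower (edgeR adjusted p = 6.16e-09), and Pdgfra was 4.57-fold lower (edgeR adjusted p = 2.15e-09). Nkx2-2 was at least 88.3-fold and Gpr17 at least 27.6-fold lower in AGES, counted against the floor. The remaining differences were 2.66-fold for Ptprz1, 2.52-fold for Olig2 and 1.71-fold for Olig1, all lower in AGES.

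Against AdAC CellC all of the genes counted above but Olig1 were called, 2 higher and the others lower in AGES, where 76.2% of all genes were. Pdgfra was 4.71-fold higher in AGES (log2 2.24, standard error 0.24, edgeR adjusted p = 7.30e-09) and Ptprz1 1.73-fold higher (log2 0.79, edgeR adjusted p = 1.16e-05). Sox10 was 452-fold lower (log2 −8.82, standard error 0.45, edgeR adjusted p = 5.23e-14), Enpp6 6.96-fold, Bcas1 3.67-fold and Olig2 2.20-fold, and Nkx2-2 was at least 128-fold and Gpr17 at least 4.53-fold lower. Cspg4 was lower too (log2 −8.21), again with 2 to 5 counts in AGES. Olig1 did not pass (interval −0.25 to 0.63), and its log2 difference of 0.19 turned to −0.03 when scaling was by library size only. The median log2 difference of all genes was −0.23, which became −0.44 with that scaling. Both comparisons use the same AGES libraries. Against AGES, the cultured neonatal cells thus had more Pdgfra and less Bcas1 and Enpp6, and the cultured adult cells had less Pdgfra and more Bcas1 and Enpp6.

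Ratios within a library were formed to describe how the stages vary among themselves, from CPM per kb. Enpp6 relative to Pdgfra was 41.5 ± 7.57 in AdAC direct and 20.8 ± 6.77 in AdAC CellC, but 0.0344 ± 0.0117 in neoAC direct and 0.0352 ± 0.00817 in neoAC CellC, with 0.623 ± 0.137 in AGES and 0.206 ± 0.0698 in NSCs. Bcas1 relative to Pdgfra was 218 ± 34.6 and 214 ± 85.2 in AdAC direct and AdAC CellC, 39.8 ± 4.03 in NSCs, 12.1 ± 2.11 in AGES, 0.634 ± 0.0857 in neoAC direct and 0.292 ± 0.104 in neoAC CellC. Every adult library thus had more Bcas1 and Enpp6 than Pdgfra per length, and every neonatal library had less. Gpr17 relative to Pdgfra was 3.41 ± 0.723 in AdAC direct, 0.480 ± 0.141 in neoAC direct and 0.0917 ± 0.0240 in neoAC CellC, and it was not formed where a library had 3 counts or fewer. The ratio of Olig1 to Olig2 ranged less, from 2.48 ± 0.177 in AdAC CellC and 2.51 ± 0.204 in NSCs over 3.56 ± 0.0669 in AdAC direct, 4.22 ± 0.538 in neoAC direct and 4.33 ± 0.314 in neoAC CellC to 6.39 ± 1.71 in AGES.

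**Figure D5:**
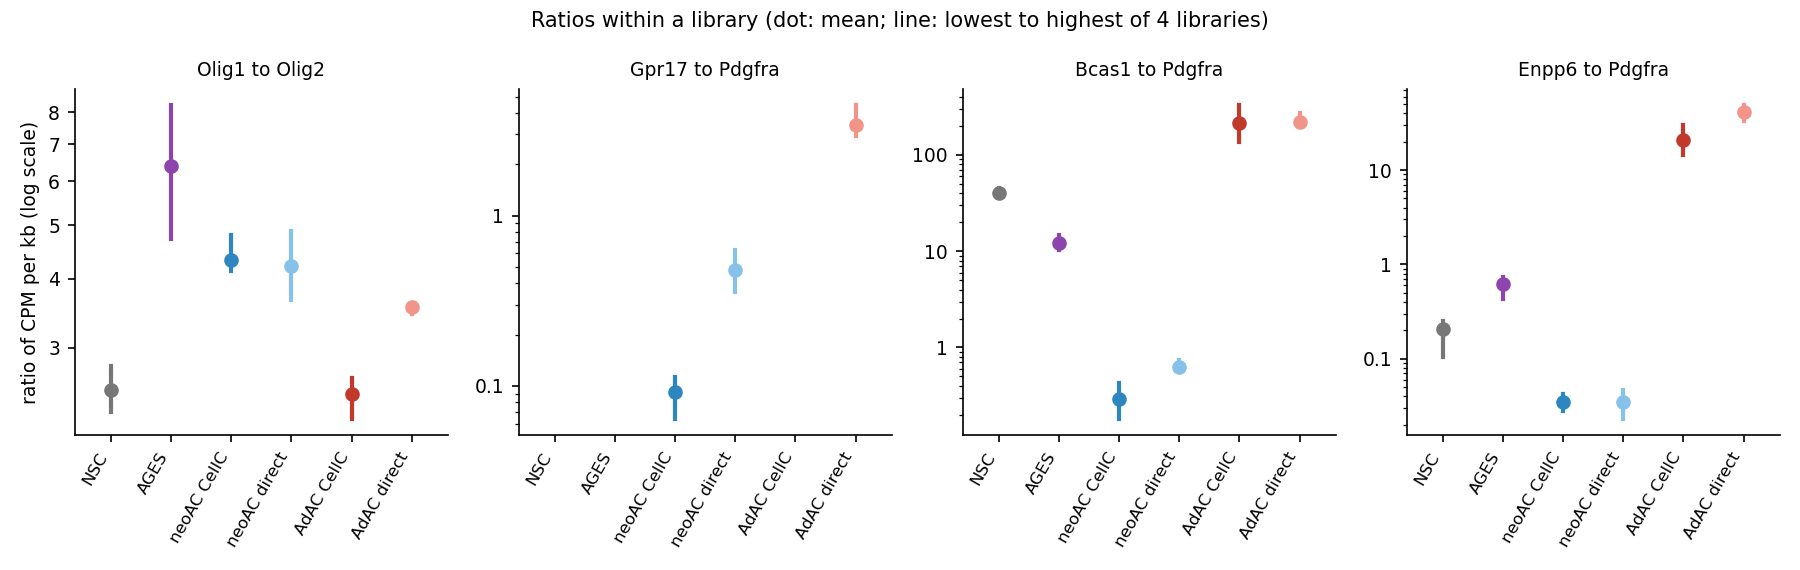
Ratios of CPM per kb within a library (log axes), with dots at the mean and lines from the lowest to the highest of 4 libraries in each group. The ratios of Bcas1 and Enpp6 to Pdgfra lie above 10 in both adult groups and below 1 in both neonatal groups, and groups with a library at 3 counts or fewer of Gpr17 have no point.

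Other genes of the lineage were followed through lists. Of 11 further OPC markers, 9 were higher and 2 lower in neoAC direct than in AdAC direct, 10 were higher and 1 lower in neoAC CellC than in AdAC CellC, 5 rose and 5 fell with neonatal culture, and 2 rose and 7 fell with adult culture. Of all genes, 71.4%, 63.8%, 65.7% and 78% were called in these comparisons, so that the number called in adult culture was near that of genes at large. The calcium channel subunit gene Cacng4 had 190 ± 22.1 CPM in neoAC direct and 16.3 ± 1.79 CPM in AdAC direct, with 107 ± 6.75 and 4.02 ± 0.391 CPM in the respective cultures. Vcan, which encodes the proteoglycan versican, was high in neoAC direct (483 ± 67.9) and low in AdAC direct (12.2 ± 1.37), but was higher in adult (86.8 ± 6.86) than in neonatal culture (39.5 ± 7.41). From NSCs to AGES the extracellular matrix gene Tnr rose from 36.2 ± 3.91 to 360 ± 88.7 CPM, whereas Vcan, Cacng4 and Xylt1 fell. Over the list, 3 markers rose and 6 fell from NSCs to AGES, where 65.7% of all genes were called.

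The list of 12 further committed precursor and newly formed oligodendrocyte genes that could be tested was split. In the directly isolated cells 7 were higher in neonatal and 2 in adult cells, and in culture 4 and 5, where 71.4% and 63.8% of all genes were called. The kinase gene Fyn had a mean of 330 CPM in neoAC direct (9269 to 12409 counts) and 103 ± 1.85 CPM in AdAC direct, and the calcium release channel gene Itpr2 had 153 ± 6.06 and 93.6 ± 1.49 CPM. Of 12 further transcription factors, 4 were higher in neoAC direct and 7 in AdAC direct, beside the same 71.4% of all genes. Myrf, the regulator of myelin genes, had 791 ± 35.4 CPM in AdAC direct, 295 ± 83.3 in AdAC CellC and 2.36 ± 0.427 to 4.5 ± 0.550 in the other 4 groups. Sox8, a relative of Sox10, had 207 ± 17.2 CPM in NSCs, 176 ± 9.85 in AdAC direct, 113 ± 13.8 in neoAC direct and 31.8 ± 8.0 to 51.8 ± 9.17 in the other groups.

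Among 10 inhibitors of oligodendrocyte differentiation, 7 rose and 2 fell from NSCs to AGES, where 65.7% of all genes were called (6246 rose and 6691 fell). The targets of BMP signaling Id1 (17.5 ± 3.79 to 615 ± 67.6 CPM), Id2 (22.6 ± 4.53 to 473 ± 51.1) and Id3 (151 ± 27.4 to 1062 ± 71.9) were among those that rose. Between the directly isolated cells, 7 were higher in neonatal and 1 in adult cells. Of 7 ligands and partners of the PDGFRA and PTPRZ1 receptors, 3 were higher in neoAC direct and 2 in AdAC direct. Of all genes 71.4% were called there, 6888 higher in neonatal and 7177 higher in adult cells. Pleiotrophin, encoded by Ptn, is a ligand of PTPRZ1 and had its highest level, like Ptprz1, in neoAC direct (4861 ± 435 CPM), followed by NSCs (1604 ± 172), AdAC direct (768 ± 54.5), neoAC CellC (512 ± 21.7), AGES (359 ± 125) and AdAC CellC (172 ± 29.9). Midkine (Mdk), the other ligand, was at 53.5 ± 5.56 to 173 ± 34.1 CPM in the primary cells and at 3.00 ± 0.406 and 0.717 ± 0.209 CPM in NSCs and AGES. Contactin 1 (Cntn1), a partner of PTPRZ1 on the cell surface, was highest in AGES (348 ± 84.5 CPM).

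For each of the 10 genes the 1 gene outside the list with the most similar pattern was sought, by Pearson's correlation of log2 CPM over the 24 libraries, which share 6 group means. Sox10 was closest to Gal3st1 (0.995), Nkx2-2 to As3mt (0.993), Cspg4 to Mdk (0.990), Bcas1 to Gm21168 (0.980), Gpr17 to Duxbl1 (0.980), Enpp6 to Tmod1 (0.976), Ptprz1 to Klhl5 (0.972), Olig2 to Cep72 (0.944), Pdgfra to Nln (0.930) and Olig1 to Rgs7bp (0.918). Of these, Gm21168 and Duxbl1 had no group mean above 2.69 and 1.87 CPM. Gal3st1, which makes the myelin lipid sulfatide, had 69.7 CPM in AdAC direct and 27.4 CPM in AdAC CellC and at most 2.08 CPM elsewhere. The correlation between Olig1 and Olig2 themselves was 0.92.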

How the data were processed

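RNA-seq of 24 libraries (stranded, polyA-selected, paired-end) was used as the table of raw counts per gene that the authors deposited. They had aligned reads with STAR 2.7.3a to GRCm38 and counted exons per gene with featureCounts and Gencode vM12 annotation, and whether strand was used is not given in the sources used here. All columns were matched to samples by name. Of 49671 identifiers, 49326 (99.3%) were given a symbol and exon length from Gencode vM21. Genes were filtered with filterByExpr, scaled by TMM and tested with edgeR 4.0.16 (R 4.3.3, limma 3.58.1, robust quasi-likelihood) in 1 model of 6 groups, with Benjamini-Hochberg adjustment over 19691 genes and a threshold of 0.05. Intervals are 1.96 standard errors. DESeq2 1.42.0, other scalings and filters, fits of the compared groups and the omission of each library were alternatives. The fits were tested on simulated data. No pair of replicates was alike enough to be 1 library (lowest chi-square per gene 6.09). The 10 genes and all lists were chosen with earlier results of these data known, and from each list the 4 genes with the highest mean CPM could be named. All p-values rest on the spread between replicates within groups. In the main model this spread was pooled over the 6 groups and estimated with information shared between genes. For NSCs and AGES the replicates were cultures from different passages of 1 cell line.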

Additional observations from a re-analysis of the deposited data

Results flagged for a closer look

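Of 60 sets of 4 libraries (10 genes in 6 groups), 4 had a library far from the other 3, where chance gives about 1 in 20. They were Sox10 (6.81 CPM) and Gpr17 (6.75 CPM) in neoAC direct replicate 2, Nkx2-2 in AdAC CellC replicate 1 (11.05 CPM) and Nkx2-2 in NSC replicate 1, where the value of 0.0326 CPM is a single count.

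The change with culture differed between adult and neonatal cells by the interaction test for 7 genes. The adult minus neonatal log2 change was −1.81 for Pdgfra, 1.16 for Cspg4, −2.88 for Sox10, −2.76 for Gpr17, −0.78 for Bcas1, −2.98 for Enpp6 and 1.35 for Ptprz1.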

How the results depend on the processing

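Of the recomputed log2 fold changes of the 10 genes, 1256 had the same direction and the same side of the threshold, 39 were weaker, 4 stronger and 21 reversed. Counts of called genes are not part of this tally, and those that moved by more than 1.5 times follow. A minimum of 10 counts in every library left 5 of the 10 genes, of which 3 (direct isolates by age), 5 (neonatal culture), 3 (adult culture), 4 (cultures by age), 5 (AGES against neoAC CellC), 4 (AGES against AdAC CellC) and 4 (interaction) were called. With an absolute log2 change over 1 required, 5 genes were called in neonatal and 5 in adult culture. Sign changes were found only for values that missed the threshold. For adult culture, Bcas1 was −0.042 with DESeq2 size factors and with the DESeq2 Wald test, −0.055 without a filter and −0.10 with the minimum of 10 counts, and Pdgfra was −0.034 with that minimum. Olig1 in AGES against AdAC CellC was −0.027 with library size only. Leaving out 1 library at a time gave log2 ranges of −0.085 to 0.22 for Bcas1 and −0.046 to 0.22 for Pdgfra in adult culture, −0.71 to 0.040 for Gpr17 in neonatal culture, −0.014 to 0.15 for Cspg4 and −0.19 to 0.41 for Olig2 between cultures, −0.050 to 0.17 for Pdgfra and −0.19 to 0.89 for Sox10 in AGES against NSCs, and −0.22 to 0.38 for Olig2 in the interaction. The cause was not tested. Library size only moved the median log2 change of all genes from 0.04 to 0.27 in neonatal culture, from −0.07 to −0.37 and from −0.23 to −0.44 in AGES against neoAC CellC and AdAC CellC, and from 0.05 to −0.10 in the interaction.

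Samples with the same replicate number did not deviate together (correlations −0.10 to 0.11, with the closest match in the own number in 8 of 28 cases). A replicate block in a fit of the compared groups gave 8, 9, 8, 6, 6, 9 and 9 called genes for the direct isolates by age, neonatal culture, adult culture, cultures by age, AGES against NSCs, neoAC CellC and AdAC CellC, and 6 for the interaction, against 8, 9, 8, 7, 6, 10, 9 and 6 without it. Under the block Olig1 was not called between cultures (edgeR adjusted p = 0.148) or in AGES against neoAC CellC (edgeR adjusted p = 0.0561), and Olig2 in the interaction was 0.019. Beside the groups at the floor, depth limits Sox10 and Cspg4 in NSCs and AGES, Enpp6 in neoAC direct and Gpr17 in AdAC CellC, with at most 31 counts per library.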
